A study of Homo sapiens with 18 samples.

Results

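The insulin-like growth factor (IGF) binding proteins, the receptors for IGFs and insulin, their docking proteins and a catalytic subunit of phosphoinositide 3-kinase (PI3K) were followed in LNCaP, an established line of human prostate carcinoma cells, upon knockdown of either of a pair of protein disulphide isomerases. The genes were picked by symbol and numbered 10 of the 59385 genes in the expression table. They were IGFBP2, IGFBP3, IGFBP4, IGFBP5, IGF1R, IGF2R, INSR, IRS1, IRS2 and PIK3CB. Cells of all groups grew in medium with 10% fetal bovine serum and received a small interfering RNA (siRNA) with the lipid reagent RNAiMAX. The siRNA was siNC (control), siPDIA1 (against PDIA1, gene symbol P4HB) or siPDIA5 (against PDIA5), and cells were collected after 48 h or 96 h. Each of the 6 groups had 3 libraries of stranded polyA RNA, 18 in all. The model is a single cell line, every comparison rests on 1 siRNA label per target, and the sequence or pooling of the siRNAs is not given in the sources used here. Whether the libraries within a group derive from independent cultures is not stated in the labels, and p-values therefore measure the spread between these libraries, which may be technical.

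IGFs and insulin bind receptors that are made as precursors, cross-linked by disulphide bonds in the endoplasmic reticulum and cut by furin-type proteases into 2 kinds of chain. The secreted IGF binding proteins, each folded around conserved disulphide bonds, hold IGFs outside the cell and set how much reaches the receptor. Active receptors phosphorylate the docking proteins IRS1 and IRS2, which recruit PI3K and so switch on AKT and mTOR and keep FOXO transcription factors out of the nucleus. In prostate cancer cells this route supports growth and survival.

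The promoter windows of IGFBP3, PIK3CB and INSR are shown. On the log2 scale used in the tests, these genes had the largest rise, the largest fall and opposite changes under the siRNAs. Each window is 240 bases of RefSeq sequence on the gene's own strand, 5′ to 3′, ending 10 bases before the annotated start (GRCh38.p14). Capitals mark the GC box GGGCGG on either strand, the site bound by SP-family factors, and neighbouring copies may share bases.
IGFBP3, chr7:45921283-45921522, minus strand: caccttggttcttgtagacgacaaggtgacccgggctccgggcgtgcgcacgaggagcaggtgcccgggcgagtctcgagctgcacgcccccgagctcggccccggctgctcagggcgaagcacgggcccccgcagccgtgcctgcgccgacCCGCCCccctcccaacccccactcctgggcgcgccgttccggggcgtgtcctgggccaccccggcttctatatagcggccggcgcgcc
PIK3CB, chr3:138834939-138835178, minus strand: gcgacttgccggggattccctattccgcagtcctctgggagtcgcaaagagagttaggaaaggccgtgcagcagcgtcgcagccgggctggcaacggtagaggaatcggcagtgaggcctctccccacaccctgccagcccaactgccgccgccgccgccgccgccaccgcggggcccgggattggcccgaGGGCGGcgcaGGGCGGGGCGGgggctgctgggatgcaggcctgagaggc
INSR, chr19:7294425-7294664, minus strand: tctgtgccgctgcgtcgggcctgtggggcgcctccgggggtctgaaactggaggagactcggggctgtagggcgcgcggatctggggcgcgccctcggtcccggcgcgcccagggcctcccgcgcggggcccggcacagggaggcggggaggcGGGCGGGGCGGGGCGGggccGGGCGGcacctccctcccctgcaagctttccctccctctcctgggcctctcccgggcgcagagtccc
The GC box occurred 1 time in the IGFBP3 window, 3 times in that of PIK3CB's upstream start and 4 times in that of INSR, and 41.4% of the 35116 windows of the same length held it. PIK3CB has a second RefSeq start, not shown, whose window (chr3:138707632-138707871) held 0 GC boxes and had a GC content of 37.1%, and which of the starts these cells use was not tested. The GC content was 75.0% for IGFBP3, 72.1% for the PIK3CB window shown and 79.2% for INSR, against a median of 57.9% over all windows. None of the 3 windows held TATAAA (in 10.6% of windows), the FOXO site GTAAACA (2.85%), the E-box CACGTG (6.01%) or the endoplasmic reticulum stress element (0.0740%) on either strand. Only exact matches were counted, so variants such as the tatata near the end of the IGFBP3 window were left out. The IGFBP3 window lies upstream of the main start and within an intron of a longer annotated IGFBP3 transcript.

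Both targets fell in the libraries labelled for them. P4HB, which encodes PDIA1, was at 5.73 ± 0.458 RPKM (SD, n = 3) in siPDIA1 against 66.9 ± 0.761 in siNC at 48 h, and at 9.16 ± 0.953 against 68.9 ± 4.75 at 96 h. RPKM counts reads per kilobase of exon, scaled to a common number of reads. PDIA5 was at 1.55 ± 0.195 RPKM in siPDIA5 against 14.0 ± 0.464 at 48 h, and at 1.40 ± 0.200 against 14.9 ± 1.22 at 96 h. In the siPDIA5 libraries P4HB was 1.93 times the siNC level at 48 h and 1.81 times at 96 h. Markers fitted a luminal prostate line, with KLK3 (prostate-specific antigen) at 222 to 609 RPKM, and the 8 luminal markers summed to 819 to 1339 RPKM, highest in siPDIA5 at 96 h (1294 to 1339, against 872 to 964 in siNC). The summed markers of basal cells reached 0.728 and those of leukocytes 0.249. COL1A1, a fibroblast collagen, was detected at 1.69 to 3.59 RPKM and VWF, an endothelial protein, at 0.901 to 3.24, and no other marker of those cell types passed 0.584. The table holds no counts. Library sizes estimated from the steps in its values were 29200000 to 43900000 reads.

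In control cells IGFBP2, IGF2R and PIK3CB had the highest transcript levels of the genes followed. IGF1R and INSR were lower, and IGFBP4 and IGFBP5 were almost absent. These are RNA levels, and which of the genes carries signalling in these cells was not tested. At 48 h in siNC, the order by mean RPKM was IGF2R (32.9), IGFBP2 (31.4), PIK3CB (16.6), IGF1R (4.36), INSR (4.19), IRS1 (1.89), IGFBP3 (1.25), IRS2 (1.06), IGFBP5 (0.0129) and IGFBP4 (0.00397). The libraries overlapped between IGF2R and IGFBP2, between IGF1R and INSR, between IGFBP3 and IRS2 and between IGFBP5 and IGFBP4, so those neighbours were not ordered beyond their spread. The order was the same after siPDIA1 at 48 h and differed in the remaining groups. In siNC at 96 h IGFBP2 (38.1) ranked above IGF2R (25.5) with no overlap, and INSR (4.08) above IGF1R (3.22) with overlap. After siPDIA5 at 48 h INSR ranked above IGF1R and IGFBP3 above IRS1, both with overlap. At 96 h IGFBP3 ranked above PIK3CB after siPDIA1, and INSR ranked above PIK3CB after siPDIA5. In the siPDIA1 libraries at 96 h none of the 8 members from IGFBP2 down to IRS2 overlapped its neighbour. The same held for these 8 members in the siPDIA5 libraries at 96 h and in the siPDIA1 libraries at 48 h. In bulk RNA, a change in the number of cells that express a gene and a change in the RNA per cell cannot be told apart.

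**Figure D1:**
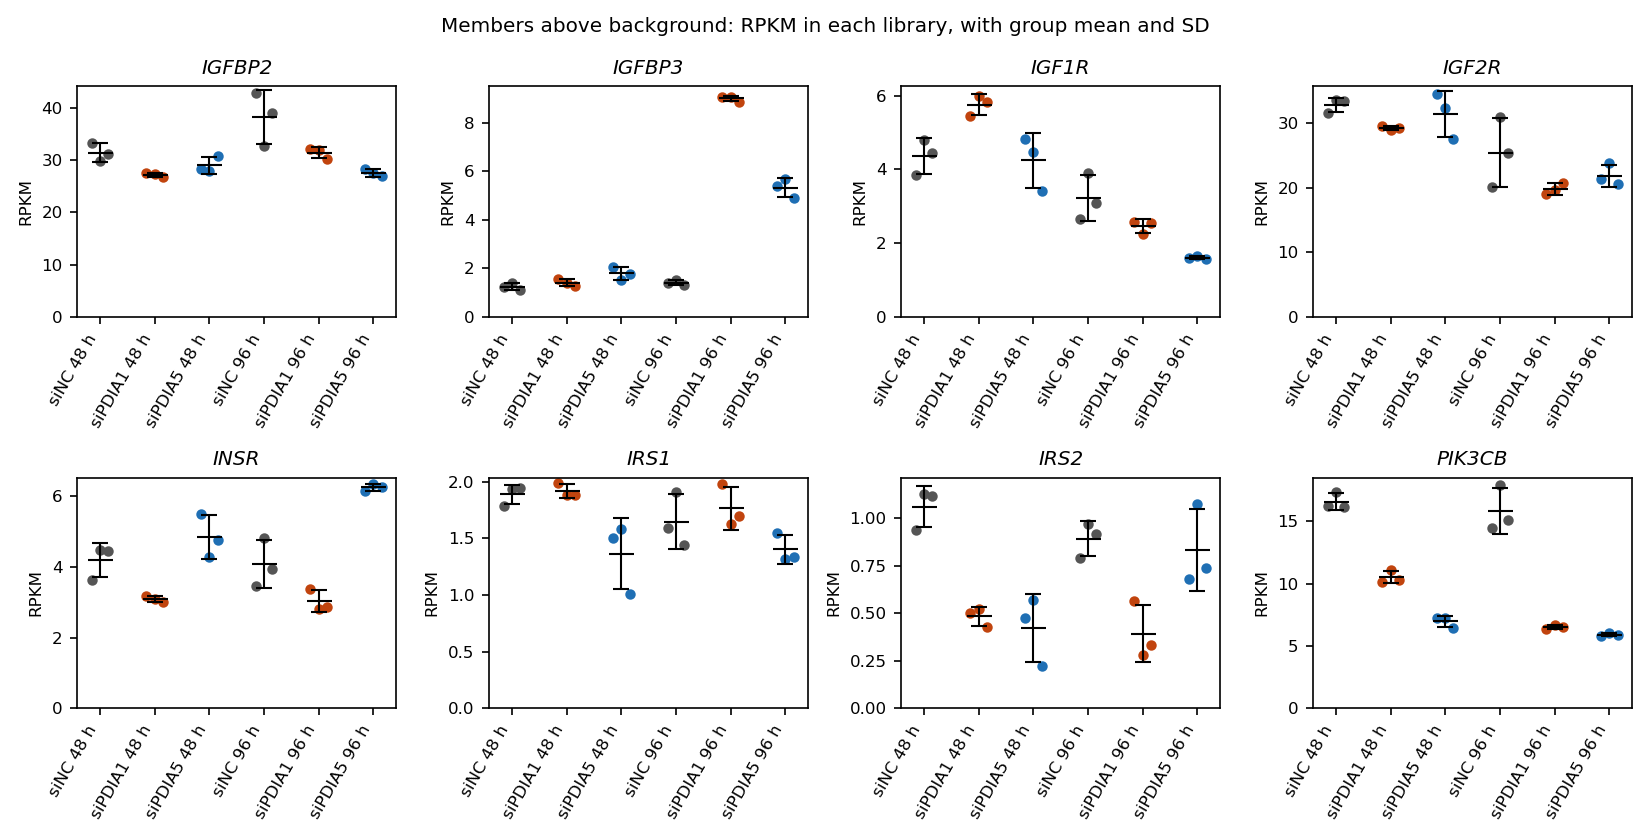
RPKM (y axis, from 0) of the 8 members above background in each of the 18 libraries, grouped by siRNA and time on the x axis. Points are libraries, and bars are the group mean and SD (n = 3). IGFBP3 stands out in both knockdown groups at 96 h (8.99 and 5.31 against 1.40 RPKM in siNC), and PIK3CB is below siNC in all 4 knockdown groups.

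Changes were tested with limma on log2(RPKM + 1) over the 11685 genes that averaged 1 RPKM or more, with Benjamini-Hochberg adjustment over all of them, and a gene was called at an adjusted p under 0.05. Fold changes on this scale understate those of low genes. Of the 10 members, 7 passed the filter. IRS2, with a mean of 0.680 RPKM, was tested in a fit with no filter over 39231 genes, and IGFBP4 and IGFBP5 are described by level. The siPDIA1 and siPDIA5 comparisons at 1 time share the same siNC libraries and are not independent of each other. After siPDIA1, 4 of the 7 members were called at 48 h, where 33.4% of all tested genes were called, and 5 at 96 h, where 45.3% were. After siPDIA5, 3 were called at 48 h, beside 45.8% of all tested genes, and 5 at 96 h, beside 51.1%. Leaving out 1 library gave 1 to 3 calls in place of 4 after siPDIA1 at 48 h, with 1 call if siNC replicate 3 was dropped, 2 if siPDIA1 replicate 2, siPDIA1 replicate 3 or siNC replicate 1 was, and 3 if siPDIA1 replicate 1 or siNC replicate 2 was. At 96 h after siPDIA1 it gave 3 in place of 5 without siNC replicate 2. After siPDIA5 at 48 h it gave 2 in place of 3 without siNC replicate 2 or 3 or siPDIA5 replicate 3. Of the calls on all libraries, 1 was higher and 3 lower after siPDIA1 at 48 h, 1 and 4 at 96 h, 1 and 2 after siPDIA5 at 48 h, and 2 and 3 at 96 h. The median log2 fold changes of the 7 members were −0.16, −0.28, −0.07 and −0.19, beside −0.01, −0.03, −0.09 and −0.06 over all tested genes. The shares of members called lay below, near or somewhat above those of all genes, so the number of members called is not in itself a result about them.

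IGFBP3 was the member that rose most, after either siRNA and chiefly at 96 h. IGFBP3 is the main IGF carrier of blood plasma and restrains growth in many cell types. At 96 h the siNC libraries held 1.38, 1.51 and 1.30 RPKM of IGFBP3, those of siPDIA1 9.07, 9.04 and 8.86, and those of siPDIA5 5.37, 5.67 and 4.90. All knockdown libraries lay above all controls, and all siPDIA1 libraries above all siPDIA5 libraries. Means were 6.44 times the siNC mean after siPDIA1 and 3.81 times after siPDIA5. On the log2 scale IGFBP3 rose by 2.06 ± 0.08 (SE) after siPDIA1 (limma, adjusted p = 2.49e-11) and by 1.40 ± 0.08 after siPDIA5 (limma, adjusted p = 9.50e-10). The rise after siPDIA1 exceeded that after siPDIA5 by 0.66 ± 0.08 (limma, adjusted p = 5.30e-06).

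At 48 h the rise of IGFBP3 was small. The siNC libraries held 1.25, 1.39 and 1.1 RPKM, those of siPDIA1 1.56, 1.39 and 1.28, and those of siPDIA5 2.06, 1.53 and 1.76. The siPDIA5 libraries were all above siNC, while siPDIA1 and siNC overlapped. IGFBP3 rose by 0.31 ± 0.08 after siPDIA5 (limma, adjusted p = 0.00519), a call lost in a fit on the compared groups alone (0.0712), and the estimate after siPDIA1 was 0.10 ± 0.08 (0.365). The effect at 96 h exceeded that at 48 h by 1.96 ± 0.11 for siPDIA1 (limma, adjusted p = 2.61e-08) and by 1.09 ± 0.11 for siPDIA5 (1.09e-05). In siNC itself, IGFBP3 differed by 0.09 between the times (limma, adjusted p = 0.421). Each value rests on an estimated 192 to 1710 reads per library.

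VWF, the 1 endothelial marker of 4 that passed the filter, rose with IGFBP3 at 96 h, by 0.72 after siPDIA1 and by 0.45 after siPDIA5 on the log2 scale. VWF also rose at 48 h, by 0.38 after siPDIA1 (limma, adjusted p = 0.00264), where IGFBP3 was not called, and by 0.30 after siPDIA5 (0.00942). At 96 h the summed endothelial markers lay between 2.91 and 3.29 RPKM in siPDIA1 libraries, between 2.12 and 2.7 in siPDIA5 libraries and between 1.40 and 1.57 in siNC. Their part in the IGFBP3 result was not tested. PECAM1, CDH5 and KDR, which define endothelial cells, were at or under 0.0311, 0.0120 and 0.0290 RPKM in all 18 libraries. The summed basal epithelial markers, of which KRT14 reached 0.679, were 0.428 to 0.728 after siPDIA1 at 96 h and at most 0.110 in siNC.

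IGFBP2 moved the other way. It is the binding protein with the highest transcript level in these cells and a secreted carrier of both IGFs. At 96 h the siNC libraries held 42.9, 32.7 and 38.9 RPKM, those of siPDIA1 32.1, 31.9 and 30.2, and those of siPDIA5 28.2, 27.5 and 26.8. All knockdown libraries were below the lowest control, which was close to the siPDIA1 values. IGFBP2 fell by 0.45 ± 0.07 on the log2 scale after siPDIA5 (limma, adjusted p = 9.18e-05) and by 0.27 ± 0.07 after siPDIA1 (0.00784). The siPDIA1 call was lost in a fit on the compared groups alone (0.0738). At 48 h the libraries held 33.3, 29.8 and 31.1 RPKM in siNC, 27.5, 27.3 and 26.7 after siPDIA1, and 28.2, 27.9 and 30.7 after siPDIA5. The siPDIA1 libraries were below siNC and those of siPDIA5 overlapped it. IGFBP2 fell by 0.20 ± 0.07 after siPDIA1 (limma, adjusted p = 0.0453), and the call was lost without siNC replicate 1 or 3 or without any one of the siPDIA1 libraries (0.0825 to 0.164), with median centring (0.0876), with no filter (0.136), with no trend (0.0584) and with the length trend removed (0.0633). The estimate after siPDIA5 was −0.11 ± 0.07 (limma, adjusted p = 0.222).

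The IGFBP3 to IGFBP2 transcript ratio summarised the opposite moves. Its geometric mean at 96 h was 0.0367 in siNC, 0.287 after siPDIA1 and 0.193 after siPDIA5. The groups did not overlap (exact permutation test on log ratios, two-sided, p = 0.1, the smallest that 3 against 3 allows, and 0.133 adjusted over 8 ratio tests). At 48 h the geometric mean was 0.0395 in siNC, 0.0517 after siPDIA1 and 0.0613 after siPDIA5. Neither knockdown group overlapped siNC there either (same exact test, p = 0.1 and 0.133 adjusted for each siRNA).

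IGFBP4 and IGFBP5 were close to 0 in every group. IGFBP4, which blocks IGF action until the protease PAPP-A cuts it, was listed at 0 in 9 of the 18 libraries and reached 0.218 RPKM, an estimated 14 reads. IGFBP5, which binds extracellular matrix, was listed at 0 in 2 libraries and reached 0.112 RPKM, an estimated 23 reads. IGFBP5 ends 7668 bases from the end of IGFBP2 on chromosome 2, where the pair of genes point at each other, yet their levels were far apart. Neither IGFBP4 nor IGFBP5 was called in any of the 9 comparisons in the fit with no filter described above (limma, lowest adjusted p = 0.402 for IGFBP4 and 0.418 for IGFBP5). The log2(RPKM + 1) scale compresses such low values, so a missing call says little about a difference. IGFBP5 held an estimated 14, 18 and 12 reads after siPDIA1 at 48 h against 6, 0 and 3 in siNC, without overlap. It overlapped siNC in the remaining knockdown groups.

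INSR changed in opposite directions under the siRNAs. It encodes the insulin receptor, which also binds IGF2 in one splice form and pairs with IGF1R in hybrid receptors. At 96 h the INSR values were 3.48, 4.82 and 3.95 RPKM in siNC, 3.38, 2.81 and 2.88 after siPDIA1, and 6.15, 6.34 and 6.28 after siPDIA5. The siPDIA5 libraries lay above all others, and the siPDIA1 libraries below siNC by a narrow margin. INSR rose by 0.52 ± 0.10 after siPDIA5 (limma, adjusted p = 0.000325) and fell by 0.33 ± 0.10 after siPDIA1 (0.0123). Without siNC replicate 2 the siPDIA1 call was lost (limma, adjusted p = 0.0664), as it was in a fit on the compared groups alone (0.0620). INSR was lower after siPDIA1 than after siPDIA5 by −0.85 ± 0.10 (limma, adjusted p = 3.19e-06).

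At 48 h the INSR libraries held 3.63, 4.48 and 4.46 RPKM in siNC, 3.18, 3.09 and 3.02 after siPDIA1, and 5.51, 4.29 and 4.76 after siPDIA5. INSR was again lower in all siPDIA1 libraries than in any control, while siPDIA5 overlapped siNC. It fell by 0.34 ± 0.10 after siPDIA1 (limma, adjusted p = 0.0151), a call lost without siNC replicate 2 or 3 (0.0599 and 0.0605). The estimate of 0.17 ± 0.10 after siPDIA5 was not called (limma, adjusted p = 0.168). It was called after median centring (0.28, 0.0250), quantile normalization (0.30, 0.0132) and removal of a trend with exon length (0.26, 0.0137). The siRNAs differed at 48 h by −0.51 ± 0.10, siPDIA1 minus siPDIA5 (limma, adjusted p = 0.000651).

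IGF1R, the main signalling receptor for both IGFs, rose early after siPDIA1 and was lowest late after siPDIA5. At 48 h it was at 3.84, 4.81 and 4.43 RPKM in siNC, 5.44, 5.99 and 5.84 after siPDIA1, and 4.83, 4.47 and 3.42 after siPDIA5. The siPDIA1 libraries were above all others and the other groups overlapped. IGF1R rose by 0.34 ± 0.11 after siPDIA1 (limma, adjusted p = 0.0276), and without siNC replicate 1 or 3 or siPDIA1 replicate 2 or 3 the call was lost (0.0548 to 0.118), as it was with no filter (0.0889). After siPDIA5 the estimate was −0.04 ± 0.11 (limma, adjusted p = 0.817).

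At 96 h IGF1R was at 2.66, 3.90 and 3.08 RPKM in siNC, 2.58, 2.24 and 2.55 after siPDIA1, and 1.59, 1.66 and 1.57 after siPDIA5. The 3 groups did not overlap, with siPDIA5 lowest. IGF1R fell by 0.69 ± 0.11 after siPDIA5 (limma, adjusted p = 7.75e-05), to 49.8% of the siNC mean. After siPDIA1 the estimate was −0.28 ± 0.11 and just missed the threshold (limma, adjusted p = 0.0519). It was called without siNC replicate 1 (−0.37, 0.0163) and after removal of the length trend (−0.34, 0.000905). Quantile normalization (−0.29, limma, adjusted p = 0.0231) and a pseudocount of 0.25 (−0.34, 0.0452) also gave a call. IGF1R was higher after siPDIA1 than after siPDIA5 at both times, by 0.37 ± 0.11 at 48 h (limma, adjusted p = 0.0126, or 0.0725 without siPDIA5 replicate 3) and by 0.41 ± 0.11 at 96 h (0.00612).

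The effect on IGF1R differed between the times. For siPDIA5 the effect at 96 h was lower than that at 48 h by −0.65 ± 0.16 (limma, adjusted p = 0.00914). For siPDIA1 the difference was −0.61 ± 0.16 (limma, adjusted p = 0.0299), and this call was lost without any one of 8 of the 12 libraries involved (0.0516 to 0.0757). The libraries were siNC 48 h replicates 1 and 3, siPDIA1 48 h replicates 2 and 3, siNC 96 h replicates 2 and 3 and siPDIA1 96 h replicates 2 and 3.

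The balance of INSR and IGF1R transcripts lay clear of siNC at 48 h after siPDIA1 and at 96 h after siPDIA5. At 48 h the ratio of INSR to IGF1R RPKM was 0.947, 0.932 and 1.01 in siNC and 0.585, 0.517 and 0.518 after siPDIA1. After siPDIA5 at 48 h it was 1.14, 0.960 and 1.39, of which 0.960 lay within the siNC range and the rest above it. At 96 h it was 1.30, 1.23 and 1.28 in siNC, 1.31, 1.25 and 1.13 after siPDIA1, and 3.88, 3.83 and 4.01 after siPDIA5. The siPDIA1 libraries stood below siNC at 48 h and overlapped it at 96 h, while the siPDIA5 libraries stood above all others at 96 h. In exact permutation tests on the log ratios, two-sided, p was 0.1 for siPDIA1 at 48 h and for siPDIA5 at 96 h, the smallest that 3 against 3 allows (0.133 adjusted over 8 ratio tests). By the same exact test it was 0.7 for siPDIA1 at 96 h and 0.2 for siPDIA5 at 48 h. The spread of the ratio within siNC at 96 h was narrower than that of either gene.

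**Figure D2:**
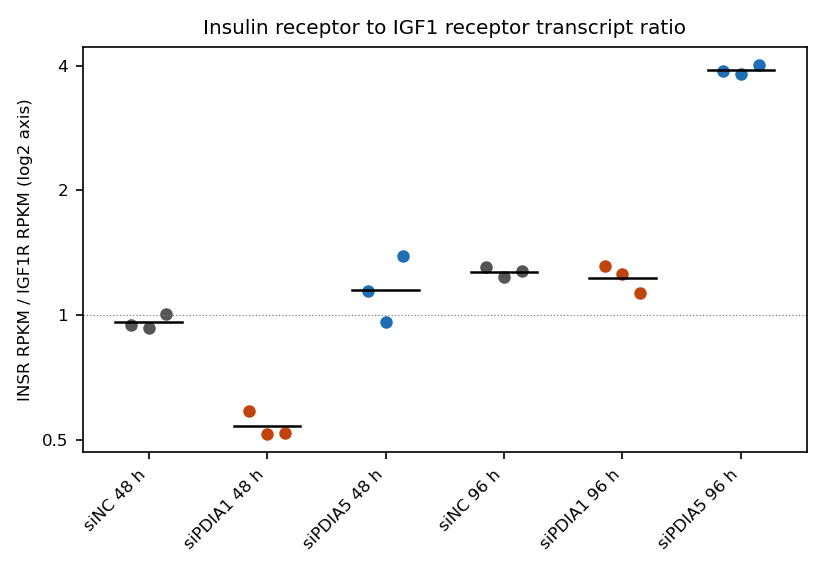
Ratio of INSR to IGF1R RPKM in each library (y axis, log2 scale) by siRNA and time (x axis). Points are libraries, lines are geometric means (n = 3), and the dotted line marks equal levels. The siPDIA1 libraries at 48 h sit near 0.539 and the siPDIA5 libraries at 96 h near 3.91.

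IGF2R, which captures IGF2 at the cell surface for degradation and sorts lysosomal enzymes, had a wide spread in the control libraries at 96 h. At 96 h it was at 20.1, 30.9 and 25.3 RPKM in siNC, 19.1, 19.7 and 20.8 after siPDIA1, and 21.3, 23.8 and 20.5 after siPDIA5. The siNC libraries spread widely and overlapped both knockdown groups. IGF2R fell by 0.33 ± 0.11 after siPDIA1 (limma, adjusted p = 0.0250), which became −0.18 without siNC replicate 2 (0.137). The call was also lost without siNC replicate 3 or siPDIA1 replicate 1 or 2 (0.0579 to 0.0698), with quantile normalization (0.0796), with no filter (0.0829) and in a fit on the compared groups alone (0.115). The estimate after siPDIA5 was −0.19 ± 0.11 (limma, adjusted p = 0.164) and was called without siNC replicate 1 (−0.34, 0.00573). At 48 h IGF2R was at 31.6, 33.6 and 33.4 RPKM in siNC, 29.6, 28.9 and 29.3 after siPDIA1, and 34.5, 32.3 and 27.5 after siPDIA5. The siPDIA1 libraries were below siNC and siPDIA5 overlapped it, and neither estimate was called (−0.16 and −0.07, limma, adjusted p = 0.295 and 0.656). In a fit on the compared groups alone the siPDIA1 estimate at 48 h was called (0.0150).

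Deviations of genes in some libraries correlated with exon length, and whether this set the values of these receptors was not tested. In the siNC libraries at 96 h, the deviation of genes from their group mean correlated with log exon length at −0.357 in replicate 1 and 0.327 in replicate 2, and IGF1R, IGF2R and INSR, all long genes, were lowest in replicate 1 and highest in replicate 2. With a length trend removed from each library, IGF2R was called after siPDIA1 at 48 h (−0.23, limma, adjusted p = 0.00901) and after siPDIA5 at 96 h (−0.21, 0.00846). Its call after siPDIA1 at 96 h was kept (−0.41). The siRNAs then also differed for IGF2R, siPDIA1 minus siPDIA5, by −0.24 at 48 h (limma, adjusted p = 0.00596) and −0.20 at 96 h (0.0154). For IGF1R the fall between the times in siNC shrank from −0.35 to −0.19 and lost its call (limma, adjusted p = 0.0609).

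IRS2 fell and IRS1 moved less. IRS2, a docking protein that couples receptors to PI3K, was at 0.937, 1.13 and 1.12 RPKM in siNC at 48 h, 0.5, 0.522 and 0.427 after siPDIA1, and 0.476, 0.571 and 0.223 after siPDIA5. All knockdown libraries were below all controls, on an estimated 53 to 356 reads per library. Means were 45.6% of the siNC mean after siPDIA1 and 40.0% after siPDIA5, lower shares than those of PIK3CB (63.6% and 42.2%). In the fit with no filter, where 8.27% of genes were called after siPDIA1 and 12.4% after siPDIA5 at 48 h, IRS2 fell by 0.47 ± 0.11 after siPDIA1 (limma, adjusted p = 0.0160) and by 0.54 ± 0.11 after siPDIA5 (0.00437). The siPDIA1 call was lost without siNC replicate 2 or 3 or siPDIA1 replicate 3 (0.0568 to 0.0602), and the siPDIA5 call in a fit on the compared groups alone (0.0893).

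At 96 h the fall of IRS2 was seen after siPDIA1. Values were 0.789, 0.969 and 0.917 RPKM in siNC, 0.562, 0.280 and 0.335 after siPDIA1, and 0.679, 1.08 and 0.740 after siPDIA5. The siPDIA1 libraries lay below all others and siPDIA5 overlapped siNC. The siPDIA1 mean was 44.0% of that of siNC, beside 41.1% for PIK3CB. IRS2 fell by 0.45 ± 0.11 after siPDIA1 (limma with no filter, adjusted p = 0.0149, beside 13.6% of genes called), and without siNC replicate 2 or siPDIA1 replicate 2 the call was lost (0.0507 and 0.0613), as it was in a fit on the compared groups alone (0.0884). The estimate after siPDIA5 was −0.05 ± 0.11 (limma with no filter, adjusted p = 1, beside 15.5% called). The siRNAs differed by −0.39 ± 0.11 at 96 h, siPDIA1 minus siPDIA5 (limma with no filter, adjusted p = 0.0283, beside 14.8% called).

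IRS1, the related docking protein, was at 1.79, 1.93 and 1.94 RPKM in siNC at 48 h, 1.99, 1.88 and 1.88 after siPDIA1, and 1.5, 1.58 and 1.01 after siPDIA5. The siPDIA5 libraries were lower than the others, 1 of them much lower. IRS1 fell by 0.30 ± 0.10 after siPDIA5 (limma, adjusted p = 0.0230), but by 0.18 without siPDIA5 replicate 3 (0.126), and the call was also lost without siNC replicate 2 or 3 (0.0601 and 0.0619), with median centring (0.107), with quantile normalization (0.156), with the length trend removed (0.0538), with no filter (0.0563) and in a fit on the compared groups alone (0.0972). In the other 3 comparisons with siNC the IRS1 groups overlapped, and estimates ran from −0.14 to 0.06 (limma, adjusted p = 0.270 to 0.930). At 96 h the IRS1 values were 1.59, 1.91 and 1.44 RPKM in siNC, 1.98, 1.62 and 1.69 after siPDIA1, and 1.55, 1.32 and 1.34 after siPDIA5.

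PIK3CB fell in all 4 knockdown groups and had the largest fall of the members on the log2(RPKM + 1) scale. It encodes the beta catalytic subunit of class I PI3K, which makes the lipid signal that recruits AKT to the membrane. At 48 h it was at 16.2, 17.4 and 16.1 RPKM in siNC, 10.2, 11.1 and 10.3 after siPDIA1, and 7.26, 7.24 and 6.47 after siPDIA5. The groups did not overlap, with siPDIA5 lowest. PIK3CB fell by 0.61 ± 0.07 after siPDIA1 (limma, adjusted p = 4.76e-06), to 63.6% of the siNC mean, and by 1.14 ± 0.07 after siPDIA5 (2.95e-09), to 42.2%.

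At 96 h PIK3CB was at 14.5, 17.9 and 15.1 RPKM in siNC, 6.33, 6.67 and 6.50 after siPDIA1, and 5.80, 6.08 and 5.87 after siPDIA5. Both knockdown groups were far below siNC, and siPDIA5 was slightly below siPDIA1. PIK3CB fell by 1.16 ± 0.07 after siPDIA1 (limma, adjusted p = 2.07e-09), to 41.1% of the siNC mean, and by 1.28 ± 0.07 after siPDIA5 (3.85e-10), to 37.4%. The effect of siPDIA1 was larger at 96 h, by −0.55 ± 0.10 (limma, adjusted p = 0.00272), while for siPDIA5 the times differed by −0.14 ± 0.10 (0.348). The siRNAs differed at 48 h by 0.53 ± 0.07, siPDIA1 minus siPDIA5 (limma, adjusted p = 1.43e-05), and at 96 h by 0.12 ± 0.07 (0.168). PIK3CB was called in all 4 comparisons with siNC under all alternatives run.

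**Figure D3:**
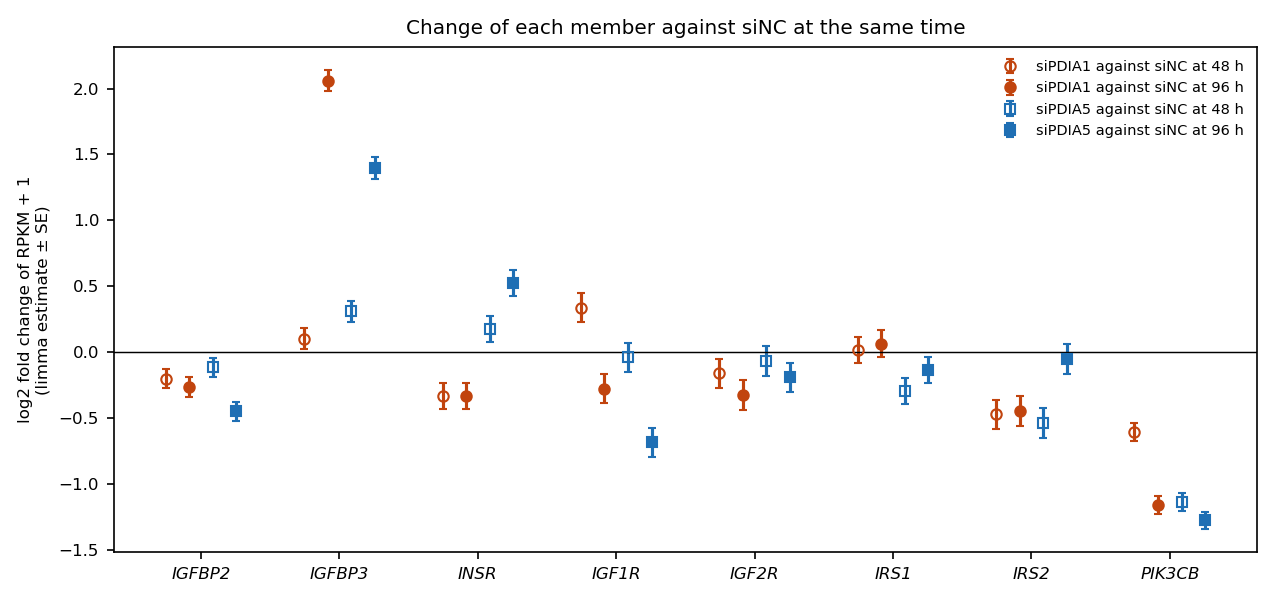
Log2 fold change of RPKM + 1 (y axis, limma estimate with SE bars) of 8 members (x axis) against siNC at the same time. Circles are siPDIA1 and squares siPDIA5, open at 48 h and filled at 96 h. IGFBP3 at 96 h lies at 2.06 and 1.40, PIK3CB lies at −0.61 to −1.28, and INSR lies below 0 for siPDIA1 and above 0 for siPDIA5.

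Set directly against each other, the siRNAs gave 4 calls among the 7 members at 48 h, beside 41.2% of all tested genes, and 3 at 96 h, beside 48.5%. Without siPDIA5 48 h replicate 3 there were 2 calls at 48 h. On all libraries the calls at 48 h were IGF1R, INSR, PIK3CB and IRS1, the last higher after siPDIA1 by 0.31 ± 0.10 (limma, adjusted p = 0.0195). The IRS1 call was lost without siPDIA1 replicate 1 (0.0598) or siPDIA5 replicate 3 (0.107), after either rescaling (median centring 0.0759, quantile normalization 0.163), with the length trend removed (0.0683) and in a fit on the compared groups alone (0.0682). At 96 h they were IGFBP3, IGF1R and INSR. IGFBP2 at 96 h (0.18 ± 0.07, limma, adjusted p = 0.0504) and IGFBP3 at 48 h (−0.21 ± 0.08, 0.0504) just missed the threshold. IGFBP3 at 48 h was called in 6 of 8 alternatives that kept all libraries of both groups, among them median centring (−0.30, limma, adjusted p = 0.00579), and not with no filter (0.111) or on the compared groups alone (0.164).

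In the control cells alone, 3 of the 7 members differed between 96 h and 48 h, beside 24.3% of all tested genes. IGFBP2 rose by 0.27 ± 0.07 (limma, adjusted p = 0.0166), IGF1R fell by 0.35 ± 0.11 (0.0302) and IGF2R fell by 0.38 ± 0.11 (0.0224). All 3 calls were lost without siNC 48 h replicate 2, siNC 96 h replicate 1 or siNC 96 h replicate 3, and without siNC 48 h replicate 3 that of IGFBP2 alone was kept. In a fit on the compared groups alone none of the 3 was called (0.108 to 0.120). The groups overlapped for IGFBP2 and IGF1R. The effect of an siRNA changed between the times for 3 members after siPDIA1, beside 5.47% of all tested genes, and for 3 after siPDIA5, beside 18.3%. Of these, the difference for IGFBP2 after siPDIA5 was −0.33 ± 0.10 (limma, adjusted p = 0.0359), and it was lost without any one of 7 of the 12 libraries involved (0.0634 to 0.0864). They were siNC 48 h replicates 2 and 3, siPDIA5 48 h replicate 3, siNC 96 h replicates 1 and 3 and siPDIA5 96 h replicates 2 and 3.

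Over the 18 libraries, the members most alike were IGF1R and IGF2R (Pearson r = 0.81), and IGFBP3 ran opposite to IGF2R (r = −0.78). These values describe libraries that share 6 groups, so they mostly restate the group differences, and IGF1R and IGF2R are both long genes. Among all tested genes, the closest to IGFBP3 were MMP7 (r = 0.97) and OR51E1 (0.97), and the closest to PIK3CB were PEX10 (0.98) and CNOT7 (0.97). INSR ran closest to MORC3 (r = 0.95) and BCL6 (0.95), IGF1R to TNPO2 (0.96) and KIAA0100 (0.96), and IGF2R to NUFIP2 (0.96) and PRPF8 (0.96). IGFBP2 ran closest to RPS15 (r = 0.96) and NDUFV1 (0.95), and IRS1 to VPS37A (0.90).

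On GRCh38 with GENCODE 29 bounds, all members are protein-coding. IGFBP3 (ENSG00000146674.16) lies at chr7:45912245-45921874 and PIK3CB (ENSG00000051382.9) at chr3:138652699-138834938, both on the minus strand. IGFBP2 (ENSG00000115457.10) lies at chr2:216632828-216664436 on the plus strand and IGFBP5 (ENSG00000115461.5) at chr2:216672105-216695525 on the minus strand, and IGFBP4 (ENSG00000141753.7) at chr17:40443461-40457731 on the plus strand. Among the receptors, IGF1R (ENSG00000140443.15) lies at chr15:98648539-98964530 and IGF2R (ENSG00000197081.16) at chr6:159969099-160113507 on the plus strand, and INSR (ENSG00000171105.14) at chr19:7112255-7294034 on the minus strand. IRS1 (ENSG00000169047.6) lies at chr2:226731317-226799759 and IRS2 (ENSG00000185950.9) at chr13:109752698-109786568, both on the minus strand. Other genes annotated within these bounds reached at most 1.71 RPKM (MIR4714, within IGF1R), and the antisense genes AC036108.1 in IGF1R and AIRN in IGF2R reached 0.537 and 0.367. The strand setting of the counting is not given in the sources used here, so reads of antisense genes cannot be told apart from those of the member. PIK3CB overlaps the pseudogenes EEF1A1P25 (up to 0.520 RPKM) and GAPDHP39 (up to 0.335), both far below it.

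The rest of the pathway was read from 77 genes in 7 lists. The ligands were nearly silent, with INS listed at 0 in all libraries, IGF1 at most 0.187 RPKM and IGF2 at most 0.0190. Of 9 further binding proteins and their proteases only STC2 passed the filter. STC2 encodes stanniocalcin, an inhibitor of the protease that cuts IGFBP4. Its mean was 21.1 RPKM in siNC, 16.4 after siPDIA1 and 15.8 after siPDIA5 at 48 h, and 13.2, 8.34 and 25.3 at 96 h. STC2 fell by 0.61 ± 0.07 after siPDIA1 at 96 h (limma, adjusted p = 2.06e-06) and rose by 0.89 ± 0.07 after siPDIA5 (1.97e-08). At 48 h it fell by 0.34 ± 0.07 and by 0.40 ± 0.07 (limma, adjusted p = 0.000832 and 0.000154).

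Among the genes of receptor maturation, FURIN had calls of opposite sign under the siRNAs. FURIN, the protease that cuts both receptor precursors, fell after siPDIA1 by 0.34 ± 0.06 at 96 h (limma, adjusted p = 0.000388) and rose after siPDIA5 by 0.66 ± 0.06 at 48 h (5.81e-07) and 1.03 ± 0.06 at 96 h (2.20e-09). Its fall after siPDIA1 at 48 h, by 0.20 (0.0211), was lost without siNC replicate 1 or 3 or siPDIA1 replicate 3 (0.0564 to 0.0701) and with no filter (0.0594). HSP90B1, an endoplasmic reticulum chaperone that folds IGFs, rose by 0.31 ± 0.05 after siPDIA5 at 48 h (limma, adjusted p = 6.27e-05) and by 0.24 at 96 h, and by 0.19 after siPDIA1 at 96 h. Among the 4 tested of 5 genes, 1 rose and 1 fell after siPDIA1 at 48 h (all tested genes: 16% higher, 17.4% lower), and 3 rose and 1 fell at 96 h (20.1% and 25.2%). After siPDIA5, 2 rose and none fell at either time (all tested genes: 16.6% higher and 29.2% lower at 48 h, 20.8% and 30.3% at 96 h). The list's median log2 fold changes were 0.05, 0.24, 0.22 and 0.15 in these 4 comparisons, beside −0.01, −0.03, −0.09 and −0.06 over all tested genes. The proteases PCSK6 and PCSK7, near 1 to 2 RPKM, rose after siPDIA1 at 96 h by 0.29 and 0.28 (limma, adjusted p = 0.0197 and 0.00648), but not with the length trend removed (0.0697 and 0.129), and PCSK6 not without siNC replicate 3 or siPDIA1 replicate 1 (0.0526 and 0.0981). PCSK7 rose after siPDIA1 at 48 h by 0.23 (0.0300), and without any one of the 3 siNC libraries or of siPDIA1 replicates 1 and 3 the call was lost (0.0510 to 0.129). This PCSK7 call was also lost with the length trend removed (limma, adjusted p = 0.256) and in a fit on the compared groups alone (0.0978).

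Median centring moved the median of all tested genes after siPDIA5 at 48 h from −0.09 to 0.01, and the calls from 1944 higher and 3408 lower to 2728 and 2239, so lower calls in that comparison depend on the scaling. Among the named genes, CITED2 (−0.26 to −0.15, limma, adjusted p = 0.0664) and IRS1 (−0.30 to −0.19, 0.107) lost their calls there. The CITED2 call was also lost with the length trend removed (limma, adjusted p = 0.0766).

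Among 9 tested of 13 receptor-proximal adaptors and phosphatases, 1 rose and 3 fell after siPDIA1 at 48 h, 2 rose and 5 fell at 96 h, and after siPDIA5 4 rose and 2 fell at 48 h and 4 rose and 3 fell at 96 h. In the same 4 comparisons 16% and 17.4%, 20.1% and 25.2%, 16.6% and 29.2%, and 20.8% and 30.3% of all tested genes were called higher and lower. The list's medians were −0.02, −0.17, −0.00 and 0.14, beside −0.01, −0.03, −0.09 and −0.06 over all tested genes. SH2B1, an adaptor that strengthens insulin receptor signalling, rose in all 4 comparisons by 0.72 to 0.82 (limma, adjusted p = 2.65e-05 or lower), from 3.25 to 5.94 RPKM after siPDIA1 and 6.30 after siPDIA5 at 48 h. SH2B2, a related adaptor, fell by 0.25 to 0.65, and its call after siPDIA1 at 48 h (0.0411) was lost without siNC replicate 2 or 3 or any one of the siPDIA1 libraries (0.0580 to 0.196). That SH2B2 call was also lost with no filter (limma, adjusted p = 0.111), median centring (0.0501) and the replicate block (0.0596). The same held with the length trend removed (0.0726) and in a fit on the compared groups alone (0.0736). SHC1, an adaptor that binds phosphorylated receptors, rose after siPDIA5 by 0.49 ± 0.05 at 48 h (limma, adjusted p = 1.29e-06) and 0.77 ± 0.05 at 96 h (4.57e-09). Its rise of 0.18 after siPDIA1 at 96 h (0.00964) was lost without siNC replicate 1 or siPDIA1 replicate 3 (0.0504 and 0.0526) and in a fit on the compared groups alone (0.0696). SOCS2, a feedback inhibitor, fell after siPDIA5 by 0.84 ± 0.08 at 48 h (limma, adjusted p = 8.36e-07) and 1.51 ± 0.08 at 96 h (6.55e-10), and after siPDIA1 by 0.42 at 96 h (0.000682). Without any one of the siPDIA1 48 h libraries the list held 2 calls in that comparison in place of 4.

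Among the other PI3K subunits and lipid phosphatases, PIK3R3 rose in all 4 comparisons while PIK3CB fell. PIK3R3 encodes a regulatory subunit that binds phosphorylated receptors and docking proteins. Its mean was 14.6 RPKM in siNC, 26.7 after siPDIA1 and 28.7 after siPDIA5 at 48 h, and 16.8, 36.3 and 31.3 at 96 h. It rose by 0.82 to 1.07 ± 0.07 on the log2 scale (limma, adjusted p = 1.19e-07 or lower). PIK3R1, the main regulatory subunit, rose after siPDIA5 by 0.55 ± 0.10 at 48 h and 0.63 ± 0.10 at 96 h (limma, adjusted p = 0.000267 and 5.01e-05). After siPDIA1 at 48 h it fell by 0.27 (0.0408), lost without any one of the siNC libraries or of siPDIA1 replicates 1 and 2 (0.0706 to 0.136). That PIK3R1 call was also lost with no filter (limma, adjusted p = 0.130) and with the replicate block (0.0564). PIK3CD, the delta catalytic subunit, rose after siPDIA1 by 0.42 and 0.59 ± 0.06 at 48 h and 96 h (limma, adjusted p = 2.66e-05 and 4.32e-07) and after siPDIA5 by 0.37 at 48 h (6.57e-05). PIK3IP1, an inhibitor of the catalytic subunits, rose after siPDIA1 by 0.63 ± 0.12 and 0.96 ± 0.12 (limma, adjusted p = 0.000966 and 1.23e-05). Of 10 tested of 14 genes, 3 rose and 2 fell, and 3 rose and 1 fell, after siPDIA1 at 48 h and 96 h, and 5 rose and 3 fell, and 4 rose and 1 fell, after siPDIA5. The last count was 3 calls in all without siPDIA5 96 h replicate 2. All tested genes gave 16% higher and 17.4% lower, 20.1% and 25.2%, 16.6% and 29.2%, and 20.8% and 30.3% in these comparisons. Medians were 0.11, 0.14, 0.17 and 0.18 for the list and −0.01, −0.03, −0.09 and −0.06 for all tested genes.

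Among 19 tested of 21 genes of AKT and mTOR, DEPTOR and TBC1D4 changed most. DEPTOR, an inhibitor of mTOR, rose after siPDIA1 by 0.77 ± 0.10 at 48 h and 1.6 ± 0.10 at 96 h (limma, adjusted p = 3.57e-05 and 7.62e-09), and after siPDIA5 by 0.77 and 0.82 (2.02e-05 and 7.84e-06). TBC1D4, an AKT substrate that governs glucose transporter traffic, fell by 0.41 ± 0.10 and 0.72 ± 0.10 after siPDIA1 (limma, adjusted p = 0.00612 and 3.52e-05) and after siPDIA5 it fell by 0.88 ± 0.10 at 48 h (4.89e-06). At 96 h TBC1D4 fell by 1.26 ± 0.10 after siPDIA5 (limma, adjusted p = 5.48e-08). AKT1 rose after siPDIA1 by 0.63 and 0.36 ± 0.05 (limma, adjusted p = 1.24e-07 and 2.35e-05) and after siPDIA5 by 0.50 at 48 h (8.85e-07). RPTOR, the scaffold of mTOR complex 1, fell after siPDIA5 by 0.43 and 0.68 ± 0.06 (limma, adjusted p = 4.46e-05 and 2.01e-07). Counts of genes that rose and fell were 4 and 4, and 4 and 7, after siPDIA1 at 48 h and 96 h, and 3 and 7, and 3 and 9, after siPDIA5. Of all tested genes, 16% were higher and 17.4% lower, 20.1% and 25.2%, 16.6% and 29.2%, and 20.8% and 30.3% in the same order. The list's medians of −0.00, −0.02, −0.08 and −0.17 stand beside −0.01, −0.03, −0.09 and −0.06 over all tested genes.

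Among 11 tested of 12 FOXO factors and target genes, SESN3 rose in all 4 comparisons, by 0.63 to 1.12 ± 0.12 (limma, adjusted p = 0.000630 or lower). SESN3 encodes a sestrin that restrains mTOR complex 1. TXNIP, which limits glucose uptake, rose after siPDIA5 by 0.54 ± 0.04 at 48 h and 1.27 ± 0.04 at 96 h (limma, adjusted p = 9.46e-08 and 2.67e-12), from 46.8 RPKM in siNC to 114 at 96 h, and after siPDIA1 by 0.58 at 96 h (3.49e-08). BCL6, a transcriptional repressor, followed INSR in direction. It fell after siPDIA1 by 0.57 ± 0.06 at each time (limma, adjusted p = 1.43e-06 and 7.60e-07) and rose after siPDIA5 by 0.38 and 1.28 ± 0.06 (5.54e-05 and 4.81e-11). CITED2, a transcriptional coregulator, fell after siPDIA1 by 0.39 ± 0.07 at 48 h (limma, adjusted p = 0.000319) and after siPDIA5 by 0.68 ± 0.07 at 96 h (4.69e-07). Counts that rose and fell were 3 and 2, and 5 and 1, after siPDIA1, and 5 and 2 at each time after siPDIA5. The shares of all tested genes higher and lower were 16% and 17.4%, 20.1% and 25.2%, 16.6% and 29.2%, and 20.8% and 30.3%. Medians for the list were 0.07, 0.16, −0.05 and 0.17, against −0.01, −0.03, −0.09 and −0.06 for all tested genes.

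**Figure D4:**
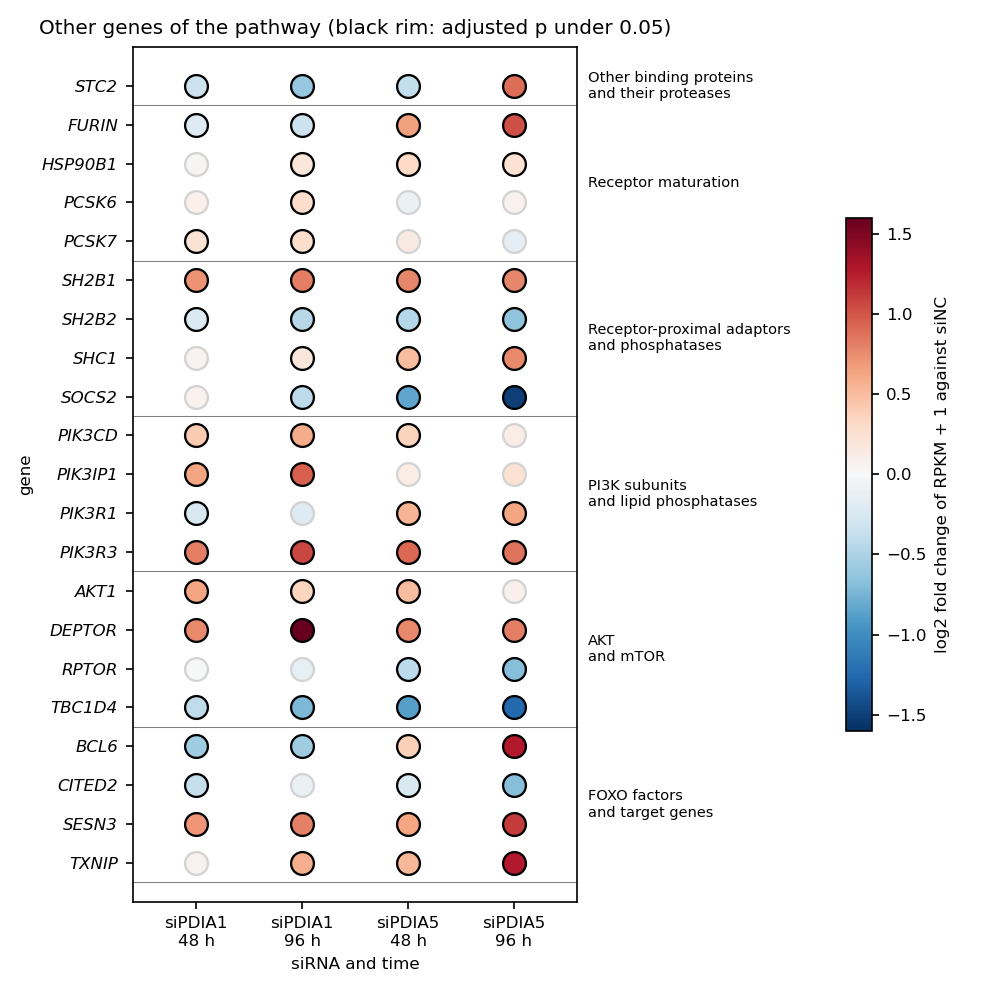
Log2 fold change of RPKM + 1 against siNC (colour, limma estimate) for the named genes of the wider lists (y axis, grouped by list) by siRNA and time (x axis). A black rim marks an adjusted p under 0.05. SH2B1, PIK3R3, DEPTOR and SESN3 are above 0 and SH2B2 and TBC1D4 below 0 in all 4 columns, and FURIN, PIK3R1 and BCL6 differ in sign between the siRNAs at each time.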

How the data were processed

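RNA-seq of 18 libraries was read from 1 table of RPKM values, which the authors deposited with no counts. Per the submitters' processing notes, the tools were DESeq2, R 3.4.1, featureCounts, STAR 2.7.0f and cutadapt 1.8 and the builds GRCh38 and hg38, with no roles named. Annotation release, strand setting and RPKM denominator were not given in the sources used here. Member genes and lists were chosen with earlier results of these data known. Groups came from the labels. log2(RPKM + 1) of the 11685 genes averaging 1 RPKM or more was fitted with limma 3.58.1 (R 4.3.3), with 6 group means over 18 libraries, empirical Bayes with a trend, and Benjamini-Hochberg adjustment in each of 9 comparisons, after tests on simulated data. Depth was estimated by multiplying RPKM by GENCODE 29 exon lengths, which gave whole reads within 0.1 read for 99.6% to 99.8% of values up to 20 reads, and entered no test. Since a common step per library was recovered only through outside gene lengths, no count test was run. Named genes were all members, up to 4 genes per list with the smallest adjusted p against siNC, and the 2 genes most correlated with each tested member, of which 1 is not reported here. The alternatives tried were quantile normalization, median centring, no filter, a filter at 5 RPKM, a pseudocount of 0.25, the replicate block, no trend, the compared groups alone, each library left out and, added after seeing the data, removal of a length trend.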

Additional observations from a re-analysis of the deposited data

Results flagged for a closer look

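The effect of an siRNA differed between 96 h and 48 h for 4 of the members, by a test of the difference itself (limma, Benjamini-Hochberg over all tested genes). Of all tested genes, 5.47% differed in this way after siPDIA1 and 18.3% after siPDIA5. For IGFBP3 the effect at 96 h was higher by 1.96 after siPDIA1 (adjusted p = 2.61e-08) and by 1.09 after siPDIA5 (1.09e-05). For IGF1R the difference was −0.61 after siPDIA1 (limma, adjusted p = 0.0299) and −0.65 after siPDIA5 (0.00914). For PIK3CB it was −0.55 after siPDIA1 (limma, adjusted p = 0.00272), and for IGFBP2 it was −0.33 after siPDIA5 (0.0359). The IGF1R call after siPDIA1 was lost without any one of 8 of the 12 libraries involved, named above with that result, and with no filter (limma, adjusted p = 0.0900). The IGFBP2 call was lost without any one of 7 of the 12, with no filter (0.108), with quantile normalization (0.0521) and in a fit on the compared groups alone (0.0836).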

How the results depend on the processing

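The number of members called was 4 and 5 after siPDIA1 at 48 h and 96 h, 3 and 5 after siPDIA5, 4 and 3 for siPDIA1 against siPDIA5, 3 between the times in siNC, and 3 for each siRNA's difference between the times. In the same order it ran, with 1 library left out at a time, from 1 to 3, 3 to 6, 2 to 3, 5 to 6, 2 to 5, 3 to 3, 0 to 3, 2 to 3 and 2 to 4. With a mean of at least 5 RPKM, where fewer members could be tested, it was 2, 3, 1, 2, 1 and 1 in the first 6 comparisons and 1 in each of the last 2. With no filter, where p-values are adjusted over more genes, it was 2 after siPDIA1 at 48 h and 0 between the times in siNC. In fits on the compared groups alone, with fewer libraries behind the spread, it was 2 after siPDIA1 at 96 h, 1 after siPDIA5 at 48 h and 0 between the times in siNC. Signs changed in estimates that were not called. After siPDIA5 at 48 h, IGF1R was at 0.066 with median centring, 0.098 with quantile normalization and 0.043 with the length trend removed, and IGF2R at 0.036 with median centring and 0.0076 with the length trend removed. Between the times in siNC, INSR was at 0.0070 with quantile normalization and 0.086 with the length trend removed, and PIK3CB at 0.017 with the latter. INSR's difference between the times for siPDIA1 was −0.013 with quantile normalization and −0.0036 with the length trend removed, and IRS1 after siPDIA1 at 48 h was −0.00044 and −0.0098. The cause was not tested. Leaving out 1 library gave −0.12 to 0.080 for IGF1R and −0.14 to 0.022 for IGF2R after siPDIA5 at 48 h, −0.14 to 0.0080 for IRS2 after siPDIA5 at 96 h, −0.0097 to 0.028 for IRS1 after siPDIA1 at 48 h and −0.14 to 0.052 for INSR between the times in siNC. For the difference between the times it gave −0.28 to 0.021 for IGF2R with siPDIA5, and with siPDIA1 −0.17 to 0.023 for IGFBP2, −0.081 to 0.11 for INSR and −0.0084 to 0.12 for IRS1. PIK3CB kept its calls against siNC at 96 h in all of these fits. IGFBP3 against siNC at 96 h, and IGF1R and INSR after siPDIA5 at 96 h, did so in all but the filter at 5 RPKM, which they did not pass.

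Deviations of same-numbered replicates correlated at −0.12 to 0.14. Differently numbered replicates were not compared, and the labels do not say what the number marks. These correlations therefore cannot show whether the numbers pair the samples. With the replicate block 5 members were called for siPDIA1 against siPDIA5 at 48 h and 4 at 96 h, through IGFBP3 (limma, adjusted p = 0.0450) and IGFBP2 (0.0406), and PIK3R1 (0.0564) and SH2B2 (0.0596) lost their calls after siPDIA1 at 48 h. The library furthest from its group mean over all tested genes was siPDIA1 96 h replicate 1 (root mean square deviation 0.247 on the log2 scale). Its group had the lowest correlation between a pair of replicates (r = 0.971). IRS2 rests on an estimated 53 to 356 reads per library, and IGFBP4 and IGFBP5 on at most 14 and 23, where a missing call says little about a difference.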
